A study of Cavia porcellus with 18 samples.

Results

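In the hippocampus of guinea pigs (Cavia porcellus), 25475 of 67423 RNA polymerase II PS5 (Pol II PS5) peaks, or 37.8%, lay farther than 5000 bases from every listed transcription start site and overlapped no H3K4me1 peak. These distal peaks are called outside peaks here. They were set beside the 34464 distal peaks that overlapped an H3K4me1 peak by at least 1 base (inside peaks) and the 7484 peaks within 5000 bases of a listed start site (start-site peaks). All samples came from hippocampi of 3 wild type males of 12 weeks, with no treatment or second genotype. Pol II PS5 ChIP-seq and H3K4me1 ChIP-seq had 3 libraries each, as did bisulfite sequencing of H3K4me1 ChIP DNA. Reduced representation bisulfite sequencing (RRBS, which reads cytosines in fragments cut out by restriction enzymes) had 6 libraries with bisulfite and 3 without. The deposited RRBS counts do not name the libraries behind them. The authors deposited 1 pooled value per peak or position for all animals. No spread between animals could be computed and no test between groups was possible, so classes of peaks are described by counts, medians and quartiles, with 95% Wilson intervals that cover counting error only.

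Pol II is the enzyme that transcribes protein-coding genes and many noncoding RNAs. Serine 5 of the repeats in its tail is phosphorylated by CDK7, the kinase of TFIIH, as transcription begins, so this form is known to gather at promoters and just downstream of them. It is also found at active enhancers, which are transcribed into short unstable RNAs. H3K4me1 is the mark that the methyltransferases MLL3 and MLL4 place on enhancers, and it also flanks active promoters. A Pol II PS5 peak far from every listed start site and outside H3K4me1 is thus away from the listed promoters and from DNA with this mark. Start sites that are not listed may still lie near it. In draft assemblies, short scaffolds and scaffold ends often hold repeated DNA, where reads from many copies can pile up on one.

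The outside peaks were selected by measured positions, namely those of the Pol II PS5 and H3K4me1 peaks, and by the start sites listed in the deposited table of CG sites. That table gave 19847 start sites of 19244 genes, on 302 of the 3102 scaffolds seen in the files. Start sites of genes with no site in the table are not among them. The cut at 5000 bases had no visible gap around it. The 3 outside peaks nearest to it lay 5002, 5010 and 5016 bases from a start site, with scores of 3.18, 3.54 and 3.14. The 3 peaks outside H3K4me1 that it left out most narrowly lay 4996, 4995 and 4995 bases away, with scores of 3.14, 9.05 and 2.19. At the other edge of the rule, 3 of the outside peaks nearest to an H3K4me1 peak lay 1 base from it, with scores of 4.46, 2.71 and 3.91. How many others lay as near was not counted. None of the 167387 CG sites with a methylation level in both bisulfite assays lay in an outside peak, so no methylation level is given for them. The rule itself lowers this count, since 1 of the 2 assays reads H3K4me1 ChIP DNA and outside peaks overlap no H3K4me1 peak.

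Outside peaks had lower scores than start-site peaks, while against inside peaks their median was slightly higher and their top end thinner. Their median score, in the authors' units, was 3.44 (quartiles 3.01 and 4.08), against 3.30 (2.85 and 4.15) for inside peaks and 3.78 (3.10 and 6.24) for start-site peaks. A score of 10 or more was reached by 221 outside peaks (0.868%, interval 0.761 to 0.989%), against 1018 inside peaks (2.95%, 2.78 to 3.14%) and 335 start-site peaks (4.48%, 4.03 to 4.97%). Among outside peaks 32 reached 20, compared with 302 inside peaks and 24 start-site peaks. Scaffold by scaffold, over the 62 scaffolds of at least 10 Mb with at least 50 peaks of both distal classes, the median score was higher for outside peaks in 40 and lower in 19. The means of these scaffold medians were 3.46 ± 0.128 for outside peaks and 3.39 ± 0.175 for inside peaks (SD over 62 scaffolds).

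**Figure D1:**
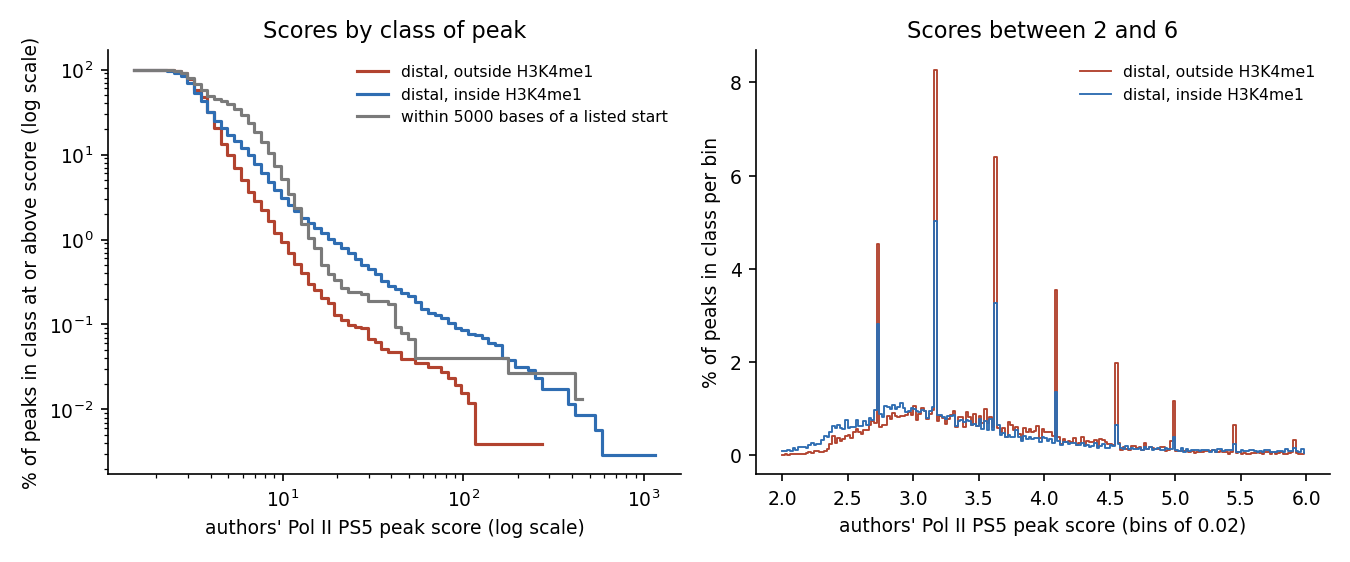
Left, the percent of peaks in each class at or above a given authors' score, both axes logarithmic, for outside peaks (red), inside peaks (blue) and start-site peaks (grey). Right, the percent of outside and inside peaks in score bins of 0.02 between 2 and 6. The red curve lies below both others at high scores, with 0.868% of outside peaks at 10 or more, and the narrow spikes on the right are recurring values such as 3.18 and 3.63.

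The score column itself held numbers in 2 formats. In all, 8033 peaks had a score written with at most 2 decimals (median 6.93) and 59390 had more decimals (median 3.25). The short format made up 929 of the outside peaks (3.65%, interval 3.42 to 3.88%), against 11.2% of inside peaks and 43.5% of start-site peaks. The share was lower for outside peaks in 61 of the 62 long scaffolds, at 4.29 ± 1.57% against 14.7 ± 3.21% for inside peaks (SD over scaffolds). Of the 221 outside peaks with a score of 10 or more, 210 had a short score. A width of exactly 193 bases, the commonest among short scores, was seen in 44.1% of the outside peaks with a short score and in 0.766% of the others. Why a peak carries one format or the other was not stated, and the values of outside peaks without the short format stand in the closing section.

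Part of the scores with more decimals fell on a ladder of repeated values. The commonest, 3.17914, was the score of 1867 outside peaks (7.33%), followed by 3.63330 in 1440, 2.72497 in 1013 and 4.08746 in 818. Of the 10 commonest values, 8 were whole multiples of 0.454163. Such multiples, from 5 to 33 steps, made up 6275 outside peaks (24.6%), against 3964 inside peaks (11.5%). A score shared exactly by at least 20 Pol II PS5 peaks of the list was carried by 64.7% of outside peaks, 41.0% of inside peaks and 50.3% of start-site peaks.

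Outside peaks were narrow. Their median width was 244 bases (quartiles 198 and 338), against 266 (203 and 404) for inside peaks and 307 (214 and 489) for start-site peaks. On scaffolds of at least 10 Mb the distal classes were nearly level, at 243 and 245 bases for outside and inside peaks, while start-site peaks had a median of 313. Over single long scaffolds the outside peaks were narrower in 37 of 62 and wider in 24. The widest outside peak, on scaffold_2887, ran from base 148 to 4743 (4596 bases, score 2.89) and ended at the highest position seen on that scaffold.

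Outside H3K4me1, these peaks lay about as far from the mark as the surrounding DNA did. From their edge to the next H3K4me1 peak the median was 2354 bases. Where only H3K4me1 peaks on the higher of the list's 2 score scales count, the class grows to 43388 peaks and this median to 18316 bases. From their centre it was 2502 bases (quartiles 971 and 7091), against 2458 (858 and 6955) for positions taken every 100 bases in distal DNA outside H3K4me1. A gap of at most 2000 bases between 2 H3K4me1 peaks, the size of a dip inside a marked region, held 5.55% of outside peaks and 6.80% of the positions. The rule lowers the first of these shares, since a peak has less room in a narrow gap than a single base.

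Density by distance showed a plateau and then a decline. Per Mb of distal DNA outside H3K4me1 there were 15.6 outside peaks at 250 to 500 bases from the mark, 15.5 at 1000 to 2000 and 15.0 at 2000 to 5000. Farther out the density was 13.2 at 5000 to 10000, 11.0 at 10000 to 20000, 8.99 at 20000 to 50000 and 8.49 beyond 50000 bases. On scaffolds of at least 10 Mb alone the density was 14.0 at 1000 to 2000 bases and 8.80 beyond 50000. The density of 7.82 within 250 bases is lowered by the rule, since a peak centred there often reaches the H3K4me1 peak. For comparison, distal DNA inside H3K4me1 held 45.1 Pol II PS5 peaks per Mb, distal DNA outside it 14.3 and DNA within 5000 bases of listed start sites 42.3. The score ran the other way, with medians of 3.18 within 250 bases, 3.33 at 1000 to 2000 and 3.71 beyond 50000 bases from the mark.

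**Figure D2:**
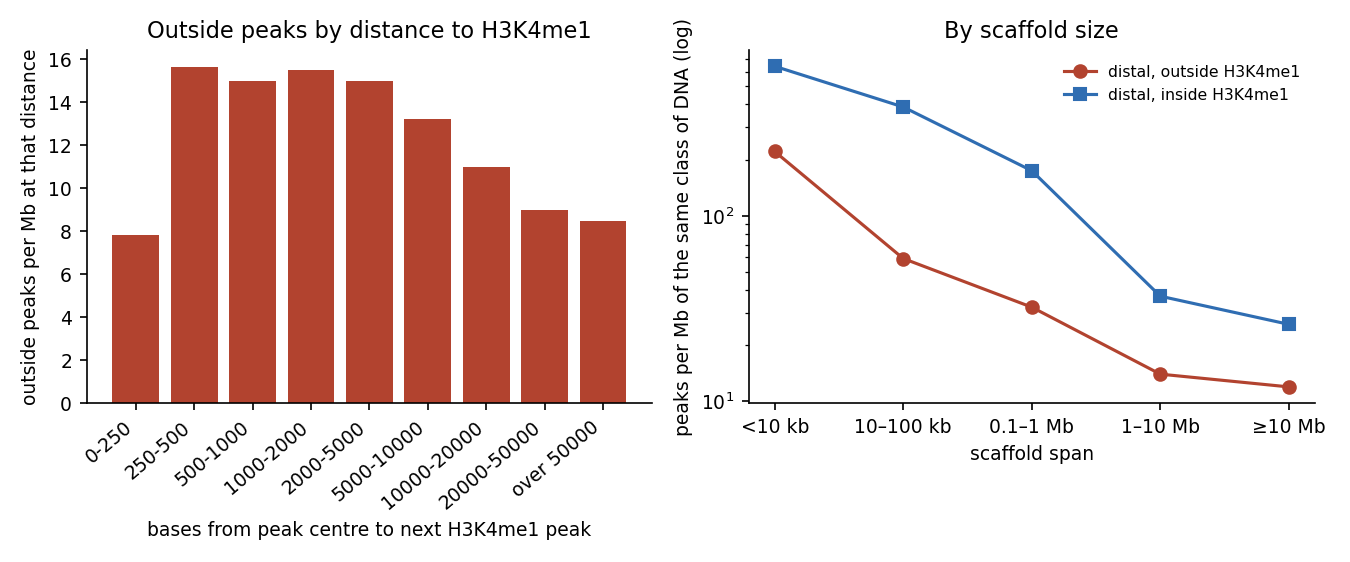
Left, outside peaks per Mb of distal DNA outside H3K4me1, by the distance in bases from the peak's centre to the next H3K4me1 peak. Right, distal peaks per Mb of DNA of the same class (outside peaks in red over DNA outside H3K4me1, inside peaks in blue over DNA inside it), by scaffold span, on a logarithmic axis. Density lies between 15.0 and 15.6 per Mb from 250 to 5000 bases and is lower beyond, and in both classes it is highest on the shortest scaffolds (222 and 642 per Mb) and lowest on the longest (11.9 and 25.9 per Mb).

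The H3K4me1 peaks next to outside peaks were narrower and more often on the low score scale than distal H3K4me1 peaks in general. H3K4me1 scores lie on a low scale, up to 14.8, and a high scale, from 42. Of the next H3K4me1 peaks, counted once per outside peak, 27.7% were on the high scale with a median width of 1184 bases, against 42.4% and 1662 bases for all distal H3K4me1 peaks. The H3K4me1 peaks next to background positions were not measured, so this is not shown to be particular to outside peaks. Distal H3K4me1 peaks with an outside peak within 5000 bases and no Pol II PS5 peak of their own averaged 66.7 ± 28.5% methylation in RRBS (SD over 1831 H3K4me1 peaks with listed CG sites, each the mean of its sites). Those holding a Pol II PS5 peak averaged 61.2 ± 28.3% (2939 peaks), and those with neither averaged 67.6 ± 27.8% (22972 peaks). Among those holding a Pol II PS5 peak, the 216 that also had an outside peak within 5000 bases averaged 61.1 ± 28.6%. Whether these means differ beyond the variation between animals was not tested.

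Most outside peaks lay on the long scaffolds, but short scaffolds held more of them than their length would give. The span of a scaffold was taken as the highest position in any file, since no genome of this build was used here. Scaffolds of at least 10 Mb held 15711 outside peaks (61.7%), against 42.3% of inside peaks and 71.6% of start-site peaks. Scaffolds under 100 kb held 2043 outside peaks (8.02%, interval 7.69 to 8.36%) but 1.39% of the distal positions outside H3K4me1. Among inside peaks the share was larger still, 24.0% against 2.40% of the distal positions inside H3K4me1. Both distal classes thus had an excess on short scaffolds, and it was greater in share for inside peaks. Density was 222 outside peaks per Mb on spans under 10 kb, 58.8 at 10 to 100 kb, 32.1 at 100 kb to 1 Mb, 14.0 at 1 to 10 Mb and 11.9 on longer ones.

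Long scaffolds varied. Over the 62 with enough peaks of both distal classes, outside peaks numbered 8.02 ± 1.28 per Mb of span (SD, lowest 5.73, highest 14.1) and made up 51.7 ± 7.61% of the distal peaks (lowest 38.9%, highest 76.8%). Their median distance to the next H3K4me1 peak ran from 1307 to 12012 bases between these scaffolds.

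Scaffolds with no H3K4me1 peak at all held 1883 outside peaks (7.39%), where peaks can only be outside, at 94.0 per Mb. By contrast such scaffolds made up 1.13% of the distal positions outside H3K4me1. The density on short scaffolds is raised by the way spans were set, because a scaffold with few entries is measured too short. In particular, 200 outside peaks lay on 84 scaffolds whose span came from the Pol II PS5 list alone.

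Scaffold ends showed the same pattern. Within 5000 bases of an end lay 1780 outside peaks (6.99%, interval 6.68 to 7.31%), against 6455 inside peaks (18.7%) and 62 start-site peaks (0.828%). Of distal positions, 0.758% outside H3K4me1 and 1.55% inside it were that close to an end. Leaving out the peaks that were themselves the last entry on their scaffold, the shares were 5.08% for outside peaks, 18.1% for inside peaks and 0.775% for start-site peaks. On scaffolds with a listed start site, where start-site peaks can occur, the counts within 5000 bases of an end were 69 of 20635 outside peaks (0.334%), 225 of 20437 inside peaks and 62 of 7484 start-site peaks (0.828%), so the order of outside and start-site peaks turned. The first base or the last position seen on a scaffold was touched by 513 outside peaks (2.01%), compared with 273 inside peaks (0.792%). The rule lowers the inside share, since the H3K4me1 peak that an inside peak overlaps can reach past it. Of the 513, 511 reached beyond every H3K4me1 peak and RRBS position of the scaffold, so true ends were not measured. On scaffolds of at least 1 Mb the density of outside peaks was 106 per Mb within 1000 bases of an end, from 29 peaks, and 31.2 at 1000 to 5000 bases. It was 21.8 at 5000 to 20000, 16.8 at 20000 to 100000 and 12.2 farther in.

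RRBS set the outside peaks apart from the other classes and at the level of ordinary distal DNA. Its reads did not enter the rule directly. The listed start sites, however, belong to genes with a CG site measured in RRBS, so the rule can raise the RRBS share of start-site peaks. A C position with at least 10 reads lay in 3276 outside peaks (12.9%, interval 12.5 to 13.3%), against 8553 inside peaks (24.8%, 24.4 to 25.3%) and 3345 start-site peaks (44.7%, 43.6 to 45.8%). The share was lower for outside peaks in all 62 long scaffolds with enough peaks, at 13.7 ± 3.32% against 28.5 ± 4.29% for inside peaks (SD over scaffolds). Per 1000 bases there were 1.36 RRBS positions in outside peaks, 3.03 in inside peaks and 9.36 in start-site peaks. All distal DNA outside H3K4me1 had 1.35 and all distal DNA inside it 2.67. As a class, outside peaks thus had about the density of their background, although those with scores of 10 or more had 3.55 positions per 1000 bases. Peaks near listed start sites but outside H3K4me1, 953 in number, stood between, with 4.26 positions per 1000 bases.

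The surroundings of the 2 distal classes differed in shape. Around outside peaks there were 1.67 positions per 1000 bases in the first 500 bases on either side and 1.52 at 2001 to 5000, so the peak itself had fewer than its flanks. Around inside peaks the values were 2.37 in the first 500 bases and 1.80 at 2001 to 5000, below the 3.03 in the peak. Flanks can run into H3K4me1 peaks and toward start sites, so they are not the same DNA as the background given above.

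**Figure D3:**
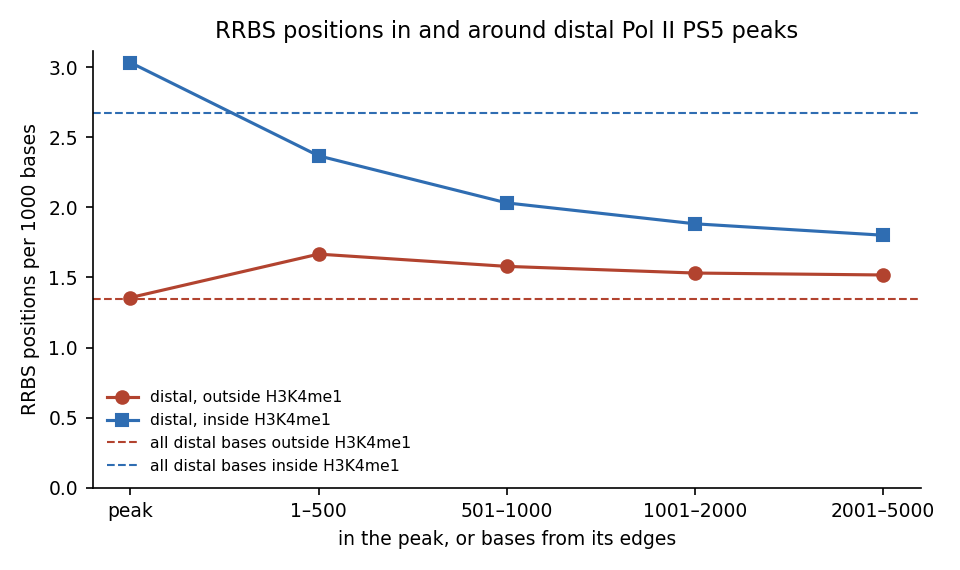
RRBS positions with at least 10 reads per 1000 bases, in the peak and at 4 distances in bases from its edges, for outside peaks (red) and inside peaks (blue). Dashed lines give all distal DNA outside and inside H3K4me1, and the red peak value of 1.36 sits on its background line of 1.35, while the blue one of 3.03 is above its line of 2.67.

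The typical depth of an RRBS position was alike in the distal classes, and a few very deep positions were not. The 10244 positions in outside peaks carried 282880 reads, with a median of 17, a 99th percentile of 181 and a maximum of 3188. The 36498 positions in inside peaks carried 17270726 reads, with a median of 20, a 99th percentile of 5982 and a maximum of 366842. Positions with at least 1000 reads numbered 7 in outside peaks, in 2 peaks, and held 4.29% of the reads. In inside peaks they numbered 1432, in 76 of 34464 peaks, and held 89.7% of the reads. On scaffolds of at least 10 Mb the median was 17 reads in both classes, with 7 such positions in 2 outside peaks and 95 in 14 inside peaks, so most of the deep inside positions were on shorter scaffolds. RRBS reads carry no molecular identifiers in these files, so they are not counts of separate molecules. As a share of positions this was 0.0683% in outside peaks and 3.92% in inside peaks, against 0.00693% in all distal DNA outside H3K4me1 and 0.0748% in all distal DNA inside it. Both classes of peaks thus lay above their background, the outside peaks through 2 peaks with low Pol II PS5 scores. One, on scaffold_3 from base 34657270 to 34657525, had 7489 reads over 8 positions and a score of 2.84. The other, on scaffold_0 from base 30277238 to 30277577, had 6383 reads over 4 positions and a score of 3.05, and lay 25 bases from an H3K4me1 peak. The next 3 by reads, on scaffold_13, scaffold_1718 and scaffold_20, had 3720, 2616 and 2323.

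Outside peaks came in groups. Another Pol II PS5 peak of any class lay within 5000 bases of 46.7% of them and within 1000 bases of 23.8%. Positions every 100 bases in distal DNA outside H3K4me1 had such a peak within 5000 bases in 14.5% and within 1000 bases in 3.22%. On scaffolds of at least 10 Mb the shares within 1000 bases were 24.7% of outside peaks and 2.52% of positions, so the short scaffolds do not carry this. Over all scaffolds the inside peaks had neighbours within 5000 bases more often, at 52.4%. On the 62 long scaffolds the order turned, with 44.9 ± 5.42% for outside peaks against 30.7 ± 7.48% for inside peaks (SD over scaffolds), and outside peaks were higher in 60 of 62. For 9391 outside peaks (36.9%) the neighbour within 5000 bases was itself an outside peak.

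**Figure D4:**
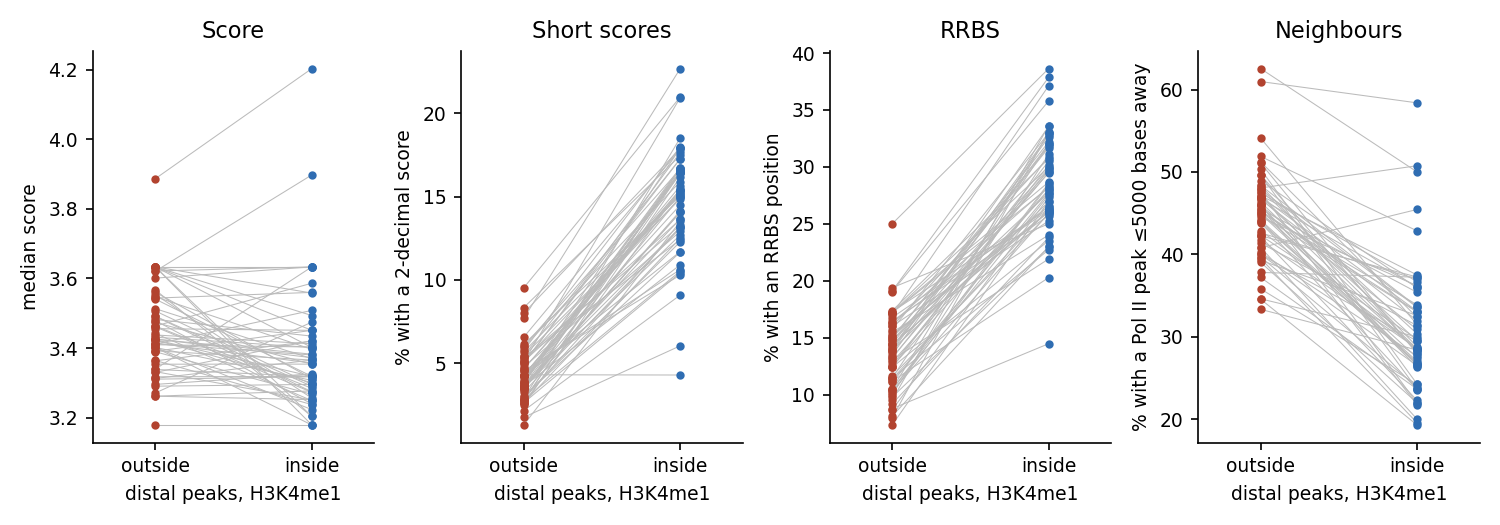
Each pair of points joined by a line is 1 of 62 scaffolds of at least 10 Mb, with outside peaks (red) left of inside peaks (blue). Panels give the median score, the percent of peaks with a score of at most 2 decimals, the percent with an RRBS position and the percent with another Pol II PS5 peak within 5000 bases. Short scores are lower outside in 61 scaffolds, RRBS in all 62, neighbours are higher in 60, and the median score is higher in 40.

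The groups were small. The densest stretch of 20000 bases held 8 outside peaks, on scaffold_507 between bases 161930 and 179085, with a median score of 3.33, a highest score of 18.58, no H3K4me1 peak and no listed start site on the scaffold. A second, on scaffold_953 between bases 9337 and 28715, held 7, with a median score of 1.63, and 4 H3K4me1 peaks stood between them. Stretches on scaffold_110, scaffold_15 and scaffold_158 held 6 each, at 222188, 428665 and 44645 bases from the nearest listed start site. None of the peaks in these 5 stretches held an RRBS position. No stretch held 10 or more.

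Outside peaks were more often than distal DNA in general on scaffolds with no listed start site, and elsewhere somewhat nearer to one. On a scaffold without any listed start site lay 4840 outside peaks (19.0%), against 14027 inside peaks (40.7%) and 6.25% of distal positions outside H3K4me1. Counting these, 72.2% of outside peaks, 69.9% of inside peaks and 73.8% of the positions lay over 50000 bases from every listed start. Where a listed start existed on the scaffold, the median distance was 94805 bases for outside peaks, 48721 for inside peaks and 131455 for the positions. The density of outside peaks was 14.5 per Mb at 5000 to 10000 bases from a start, 15.1 at 10000 to 20000, 15.4 at 20000 to 50000 and 13.7 at 50000 to 100000. It was 11.6 at 100000 to 500000 and 8.67 farther away, but 43.6 per Mb on scaffolds with no listed start site, which are mostly short. No step marked the approach to the 5000-base limit.

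Outside peaks lay on both sides of the start sites in near equal shares. Of 1085 outside peaks at 5000 to 10000 bases, 48.0% lay downstream in the direction of transcription (interval 45.1 to 51.0%). The share was 50.4% of 1933 at 10000 to 20000 bases (48.2 to 52.7%) and 51.8% of 4060 at 20000 to 50000 (50.3 to 53.4%). Positions in the same DNA lay downstream in 50.6%, 51.0% and 50.6%. At least 1 outside peak lay 5000 to 50000 bases from a start site of 7964 of the 19244 genes (41.4%). The same share was not computed for inside peaks or background positions. Outside peaks numbered 14.5 to 15.4 per Mb at these distances, near the 14.3 per Mb of all distal DNA outside H3K4me1. The most for any gene was 8, at ENSCPOG00000001301, where 3 of the 8 were downstream, and at ENSCPOG00000019795, where 4 were. The files used here do not pair these identifiers with gene symbols.

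Part of the outside peaks lay in runs of peaks whose mean score matched the Pol II score that the authors list for a transcript. The table of CG sites gives each of 20111 transcripts a Pol II score, above 0 for 7396. For 7127 of these (96.4%, within a relative tolerance of 2e-06) the score equalled the mean score of a run of Pol II PS5 peaks that began 1000 bases upstream of the start site and went downstream. Walking the opposite way matched 218 (2.95%). That walk passed over peaks within 1000 bases of the start site, which the downstream walk included, so these shares are not like for like. Peak scores recur often, and the share of accidental matches was not measured. Run length was left free, with no gene end, and the shortest matching run was kept. These runs held 3071 outside peaks (12.1%), 4694 inside peaks (13.6%) and 4915 start-site peaks (65.7%). For 758 transcripts (10.6% of those matched) the run held outside peaks alone, in 580 of them a single peak. Their median score was 3.31 (quartiles 2.95 and 3.89), against 3.73 (3.09 and 5.82) for the 5174 transcripts whose run held no outside peak. Only 3 of the 758 scores were 10 or more. Each score equals the mean of its run, so these values largely restate the peak scores of the classes given above. A transcript listed with a low Pol II score in this table can thus rest on distal peaks and no peak at its start.

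The outside peaks in such runs lay a median of 34825 bases from the nearest listed start. An RRBS position was held by 18.3% of them, against 12.1% of the other outside peaks, while their median scores were 3.28 and 3.46. By another measure, DNA between a start site and the farthest CG site listed for the same transcript held 12.6 outside peaks per Mb, against 14.6 per Mb in the rest of distal DNA outside H3K4me1. On scaffolds of at least 10 Mb the same densities were 12.4 and 11.8 per Mb, so the direction turned.

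A few outside peaks coincided with positions that the authors' deposited table of averages points to as Active start sites, by a rule that is not stated. This table gives each H3K4me1 peak its distance to an Active and an Inactive start site, and positions were recovered where at least 3 H3K4me1 peaks pointed to the same base within 1. All 3468 recovered Active positions lay within 1 base of the centre of a Pol II PS5 peak. Only 5 were within 1 base of a listed start site, and the median distance over all of them was 284 bases. Of the 11158 recovered Inactive positions, 88.3% were within 1 base of a listed start site. Among the Active positions, 150 were over 5000 bases from every listed start site. Those 150 were 53 outside peaks and 97 inside peaks. The 97 had a median score of 4.88, a short score in 50.5% and an RRBS position in 43.3%. The 53 had a median score of 3.63 with an upper quartile of 6.81, against 3.44 and 4.08 for the other 25422. A short score was carried by 13 of the 53 (24.5%), against 3.60% of the others, and an RRBS position also by 13 (24.5%), against 12.8%. The highest of them, on scaffold_26 from base 1108902 to 1109261, had a score of 17.51 and 16 RRBS positions, and lay 64787 bases from the nearest listed start and 175 from an H3K4me1 peak. Inactive positions off the list, 1289 in number, lay within 1000 bases of 18 outside peaks. Together, a recovered position off the list was within 5000 bases of 174 outside peaks (0.683%, interval 0.589 to 0.792%), against 188 inside peaks (0.545%, 0.473 to 0.629%). Within 1000 bases the order turned, with 63 outside peaks (0.247%) against 115 inside peaks (0.334%). All these counts include the 53 outside and 97 inside peaks whose own centres were the Active positions. They therefore do not measure closeness to start sites off the list. Inactive positions alone lay within 5000 bases of 122 outside and 91 inside peaks.

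Within the class, strong and weak outside peaks differed in RRBS positions and in neighbours. An RRBS position was held by 13.2% of the 6200 peaks with a score under 3, 12.1% of the 17115 at 3 to 5, 17.0% of the 1939 at 5 to 10 and 25.8% of the 221 at 10 or more. The interval of the last, 20.5 to 31.9%, covers counting error only and is no test between tiers. Per 1000 bases the RRBS positions were 1.47, 1.23, 1.84 and 3.55 from the weakest tier to the strongest. Neighbours went the opposite way, since 49.7%, 46.9%, 37.2% and 25.8% of the tiers had another Pol II PS5 peak within 5000 bases. Closeness to a scaffold end changed little, with 5.89%, 7.39%, 6.81% and 8.14%. The format of the score moved with these tiers, and 210 of the 221 peaks at 10 or more had a short score. Outside peaks with a short score had an RRBS position in 27.7% and 4.05 positions per 1000 bases, a neighbour in 22.8% and an end within 5000 bases in 2.69%. The others had 12.3%, 1.27, 47.6% and 7.15%. The part of the score format in the trend was not tested.

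**Figure D5:**
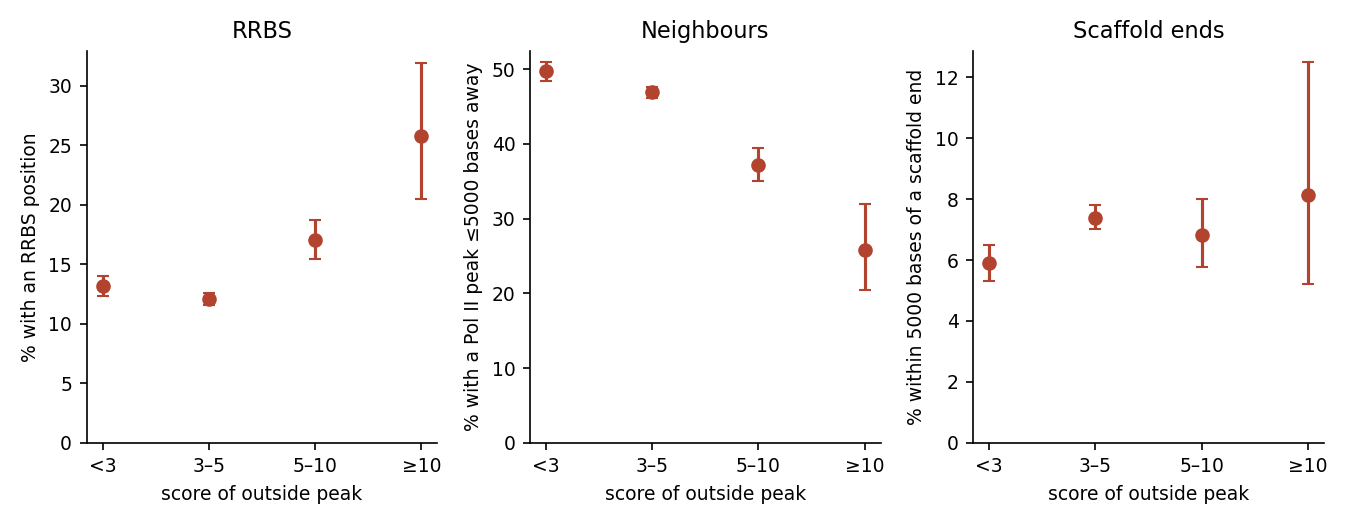
Outside peaks by the authors' score (under 3, 3 to 5, 5 to 10, 10 or more; 6200, 17115, 1939 and 221 peaks), with 95% Wilson intervals. The percent with an RRBS position is highest in the strongest tier (25.8%), the percent with another Pol II PS5 peak within 5000 bases falls to 25.8% there, and the percent near a scaffold end stays between 5.89% and 8.14%.

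The 10 highest scores were split between short and long scaffolds. The first 5 lay on scaffolds spanning 13727 to 153802 bases with no listed start site, and 4 of these scaffolds had no H3K4me1 peak. The strongest, with a score of 255.42, was on scaffold_696 from base 64606 to 64835, the last position seen there, with 6 RRBS positions and 197 reads. The next, 114.94, was on scaffold_1532 from base 13439 to 13727 and also ended at the last position seen on its scaffold. Scores of 107.84, 102.17 and 91.22 followed on scaffold_484, scaffold_1099 and scaffold_1079. The other 5, on scaffold_34, scaffold_26, scaffold_38, scaffold_23 and scaffold_30, had scores of 83.72, 76.62, 70.86, 61.49 and 50.41. These lay deep inside long scaffolds, 1572 to 8021 bases from H3K4me1 and at least 39758 bases from any listed start. Of the 10 peaks, 4 were exactly 193 bases wide and 3 held an RRBS position, with at most 72 reads at any position. The strongest outside peaks therefore fell on short scaffolds and on long ones. Positions with at least 1000 reads were rare even in inside peaks (76 of 34464 peaks), so 10 peaks are too few to compare in this.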

How the data were processed

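Pol II PS5 and H3K4me1 ChIP-seq and RRBS were analysed from the authors' pooled files. Tools named for ChIP-seq in the submitters' processing notes, in no order, were HOMER 4.6, MACS2, Bowtie2 2.2.3 and SAMtools 1.1; for RRBS, methylKit and BSMAP 2.74. The build is not given in the sources used here, and positions are printed as the files give them, counted from 1. Peak scores are the authors' own, used only within their list. RRBS counts per C position were deposited by the authors for positions with at least 10 reads, 131062338 reads over 5053261 positions. Methylation in percent per CG site was deposited by the authors for sites measured in both bisulfite assays, and signed distances of H3K4me1 peaks to start sites in a table of averages.

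Classes, distances and densities were computed with Python 3.11.15, pandas 2.3.3, NumPy 2.4.6 and SciPy 1.17.1, using 3102 scaffolds spanning 2719 Mb, and the functions were tested on simulated data. Densities use positions every 100 bases as background. The run of peaks matched to each transcript score was found after seeing the data. Its start at 1000 bases upstream was the best of 5 tried (74.2 to 96.4% matched). The peaks, classes and measures were chosen with earlier results of these data known. Regions named are the 10 highest scores, 5 with most RRBS reads, 5 widest, the 5 densest stretches, those nearest the limits, and the 5 genes with most outside peaks nearby, of which 2 are printed. No sequence is printed, since no genome of this build was used here.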

Additional observations from a re-analysis of the deposited data

How the results depend on the processing

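With the first base of each peak counted as 0, all 9 values kept within their counting intervals (25491 outside peaks). With the limit to start sites at 1000 bases, the median H3K4me1 distance was 2280 bases and 70.2% lay over 50000 bases from a start. At 20000 bases the median distance was 2632 bases, the median score 3.46, the percent near a scaffold end 7.90, over 50000 bases from a start 81.9, with an RRBS position 12.2 and with a neighbour 47.8. Counting high-scale H3K4me1 peaks alone gave 43388 outside peaks with a median score of 3.40, a width of 259, an H3K4me1 distance of 18316, 14.4% near an end, 14.0% with an RRBS position, a median of 18.4 reads, 54.5% with a neighbour and 77.6% over 50000 bases from a start. Asking for no H3K4me1 peak within 1000 bases gave a score of 3.51, a width of 248, a distance of 4247, 8.44% near an end, 11.6% with RRBS, 48.1% with a neighbour and 76.2% far from starts.

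Keeping only peaks at or above the median score of the list left 13148, with a score of 4.05, a width of 263, a distance of 2926, 7.90% near an end, 12.2% with RRBS and 74.2% far from starts. On scaffolds with a listed start site the distance was 2095, 0.334% were near an end, 13.7% had RRBS, 45.0% a neighbour and 65.7% were far from starts. Chosen after seeing the data, adding the recovered start sites left 68.9% far from starts, and keeping only scores with over 2 decimals gave a score of 3.39, a width of 246, 12.3% with RRBS and 47.6% with a neighbour. Adding start sites from a reference annotation was not run, for want of one on this build. No paired analysis was possible because each file pools the 3 animals.

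Spans are lower bounds, the list of start sites covers only genes with a listed CG site, and RRBS reads fragments rich in cut sites, so a peak without RRBS positions was not shown to lack cytosines. Repeats and sequence were not analysed here. Animals pooled into 1 list leave no replicate check of any peak.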
